A study of Mus musculus with 6 samples.

Results

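The genes that copy DNA before a cell divides were followed in cortical cells of the embryonic mouse in which the RNA-binding protein Ybx1 had been reduced. The 48 genes described here were taken by symbol from the 17920 genes of the expression table, for their known part in origin licensing, the replicative helicase, the polymerases, the sliding clamp or nucleotide supply. All 48 were listed in the table, and all 48 passed the filter on low counts. Gene expression was measured by mRNA sequencing in 6 libraries, 3 called WT and 3 called KD, which the labels describe as brain of stage E13.5, the embryonic day. The methods of the study describe the knockdown material as cells dissociated from the cortex, grown in culture, infected with a pLKO.1 lentivirus carrying a short hairpin RNA (shRNA), and selected with puromycin, to which the vector gives resistance. They list hairpins against Ybx1 and a control hairpin, without saying that the WT libraries came from cells that received the latter. The series text speaks of a deletion of Ybx1, which the methods do not describe for these cultures. Which Ybx1 hairpin was used, and the strain of the embryos cultured, are not given in the sources used here. Gene expression was said to come from independent replicate experiments, and the series text speaks of several sequencing batches over the replicates.

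DNA replication starts at origins, where the origin recognition complex (ORC) sits on DNA and, with Cdc6 and Cdt1, loads a ring of the 6 proteins Mcm2 to Mcm7. This loading, called licensing, takes place in G1 phase. In S phase the kinase Cdc7 with Dbf4, together with Cdc45 and the GINS complex, turns the loaded ring into a working helicase, and polymerases held by the clamp Pcna copy the strands behind it. Many of these genes are transcribed most strongly as cells pass from G1 into S phase, through E2F transcription factors. In the embryonic cortex the dividing cells are mainly radial glia and intermediate progenitors, whereas the neurons they produce no longer replicate their DNA.

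Library totals lay between 16294635 and 16497505 estimated counts. Ybx1 was at 628.8 ± 21.0 CPM (counts scaled to a common library size, mean ± SD, n = 3 libraries) in WT and at 116.4 ± 36.8 CPM in KD. On the log2 scale this difference was -2.43 (SE 0.18, edgeR adjusted p = 1.8e-04). The KD libraries held 15.6%, 14.7% and 25.3% of the WT mean. Below, levels are given in TPM, which corrects for library size and for transcript length, in the order of replicates 1, 2 and 3. Fold changes are log2 values of KD against WT with their standard error (SE), and a gene is called where the p-value of edgeR's quasi-likelihood test, adjusted by Benjamini-Hochberg over the 13669 genes tested, is under 0.05.

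A part of the replication genes rose in KD, spread unevenly over their roles. Of the 48 genes, 19 were called higher and 0 were called lower, whereas 12.0% of all genes tested were called higher and 11.9% lower. The 19 genes were the 6 MCM2-7 subunits, the licensing factors Cdc6 and Cdt1, Orc2 and Orc3, Cdc45 and Gins4, Pcna, Rfc1 and Rfc5, Prim1 and Pole2, Rpa1 and Rrm2. Called or not, 45 of the 48 log2 fold changes were above 0, with a median of 0.29 and a range of -0.16 to 0.74, against a median of -0.00 over all genes tested. Every KD library was above every WT library (in CPM) for 27 of the 48 genes, against 21.0% of all genes. Every KD library was below every WT library for 1 gene, Pold3, and the share of all genes in this direction was not counted. The called changes were small, from 0.20 for Rpa1 to 0.74 for Cdc6. Summed over the 48 genes, the level was 1214, 1140 and 1124 TPM in WT and 1601, 1425 and 1394 TPM in KD. The lowest KD library was thus above the highest WT library. Relative to WT, KD read somewhat higher in TPM than in CPM. Tested by limma on log2(TPM + 1), 2102 of all genes were called higher and 1051 lower, against 1646 and 1631 in the edgeR test. The median of the 48 genes was then 0.35. Groups that separate in TPM can overlap in CPM, as for Orc6. In bulk samples a larger share of replicating cells and more RNA per cell cannot be told apart.

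Libraries with the same replicate number deviated together from their group means, so each KD library was also read against the WT library of its number. KD was higher in all 3 pairs for 39 of the 48 genes, against 31.0% of all genes tested. It was lower in all 3 for Orc5 and Pold3, and the share of all genes lower in all 3 was not counted. The median log2 ratio of the 48 genes was 0.28, 0.25 and 0.28 in pairs 1, 2 and 3. With the replicate number as a block in the edgeR test, 31 of the 48 genes were called higher and 0 lower, against 18.6% of all genes called higher. These included all 19 genes called without the block. The 12 genes added by the block were Gins1, Gins3, Dbf4, Pola1, Pold1, Rpa2, Rpa3, Lig1, Rrm1, Tyms, Tk1 and Clspn, with adjusted p between 0.051 and 0.19 without it and between 0.0034 and 0.0496 with it. The count rested on single libraries: 7 genes were called when WT replicate 2 was left out, 8 for KD replicate 1, 9 for WT replicate 3 and 11 for KD replicate 2. Of all genes, 779, 1098, 1612 and 884 were called higher in these fits, against 1646 with every library. Without WT replicate 1 the count was 18, and without KD replicate 3 it was 16, with 1151 and 1298 of all genes called higher. With both replicate 2 libraries left out, 1 gene, Mcm7, was still called, while the calls over all genes fell to 135 higher and 93 lower. With both replicate 3 libraries left out, 9 were called, while 1336 of all genes were called higher.

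**Figure D1:**
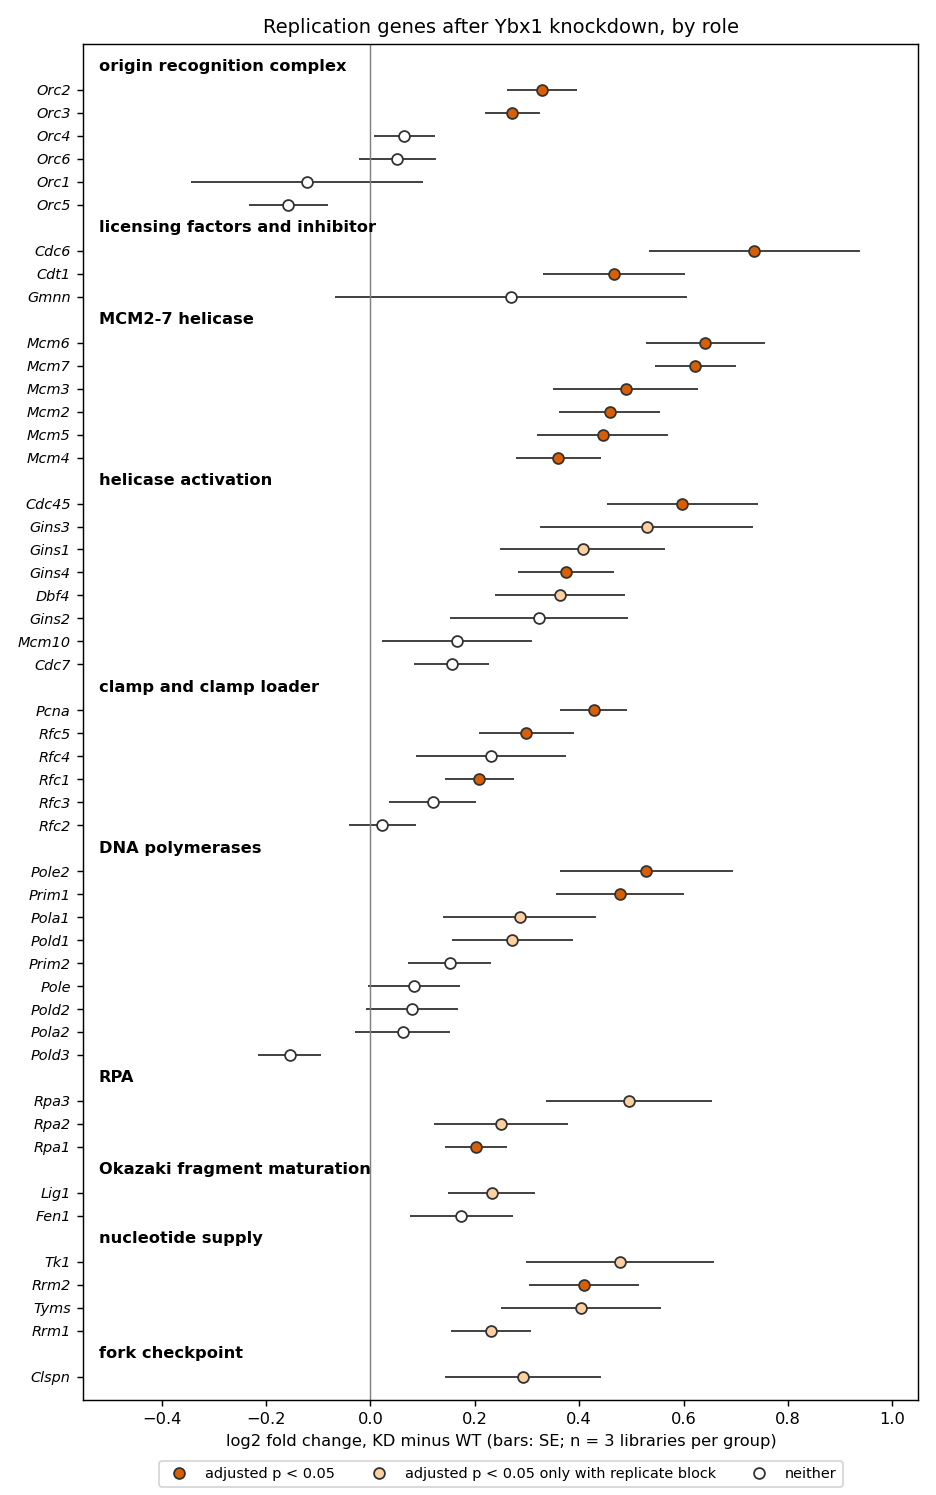
The log2 fold change of each of the 48 replication genes (x axis, KD minus WT, bars are SE, 3 libraries per group), grouped by role on the y axis; dark points were called without the replicate block, pale points only with it, open points by neither. All 6 MCM2-7 genes are dark, whereas in the origin recognition complex Orc2 and Orc3 are dark and Orc1 and Orc5 lie below 0.

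The origin recognition complex binds origins and starts licensing. The median of its 6 log2 fold changes was 0.06, and 2 of the 6, Orc2 and Orc3, were called higher. Orc2 was at 13.20, 13.68 and 13.54 TPM in WT and at 18.10, 17.04 and 17.12 TPM in KD. All 3 KD libraries were above WT, and Orc2 differed by 0.33 (SE 0.07, edgeR adjusted p = 0.0094). Orc3 was at 27.1, 27.9 and 30.04 TPM in WT and at 37.1, 40.7 and 37.2 TPM in KD, a change of 0.27 (SE 0.05, edgeR adjusted p = 0.0076). Both genes kept their call whichever single library was left out. An exon of Orc2 shares 686 bases with an exon of Nif3l1 on the opposite strand, and whether reads were counted by strand is not given.

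The other 4 ORC genes were not called. Orc5, an ATP-binding subunit of the ring, had the lowest fold change of the 48 genes. It was at 41.2, 40.6 and 36.2 TPM in WT and at 38.5, 37.6 and 34.2 TPM in KD. These ranges overlapped, and the difference of -0.16 (SE 0.08, edgeR adjusted p = 0.16) passed the threshold only when WT replicate 3 was left out (-0.22, edgeR adjusted p = 0.046). Within pairs Orc5 was lower each time, by log2 ratios of -0.16, -0.20 and -0.09. Orc4 and Orc6 differed by 0.07 (SE 0.06) and 0.05 (SE 0.07). Orc1, the subunit that binds and hydrolyses ATP and is degraded outside G1 in many mammalian cells, was scarce, at 0.87, 0.91 and 0.91 TPM in WT and 0.61, 1.03 and 1.07 TPM in KD. Its fold change was -0.12 (SE 0.22), resting on 22 to 33 counts per library. Orc6 was the most abundant, at 53.6 ± 4.13 TPM in WT (n = 3), 59.8 times the WT mean of Orc1.

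Licensing needs Cdc6 and Cdt1, which bring the MCM ring to ORC, and is held back outside G1 by geminin (Gmnn), which binds Cdt1. Cdc6 had the highest fold change of the 48 genes. It was at 2.48, 1.74 and 1.65 TPM in WT and at 4.12, 3.26 and 2.77 TPM in KD. No values were shared between groups, and the pair ratios were alike, at 0.58, 0.69 and 0.61 on the log2 scale. The change was 0.74 (SE 0.20, edgeR adjusted p = 0.030), resting on 57 to 143 counts per library. Cdt1 was at 8.38, 8.62 and 7.01 TPM in WT and at 13.1, 11.3 and 10.2 TPM in KD, again without overlap, a change of 0.47 (SE 0.14, edgeR adjusted p = 0.038). Geminin overlapped between groups, at 11.2, 8.23 and 4.23 TPM in WT and 13.0, 9.50 and 7.41 TPM in KD. In both groups its level was highest in replicate 1 and lowest in replicate 3. The difference of 0.27 (SE 0.34, edgeR adjusted p = 0.60) was not called. Within pairs Gmnn was higher in KD each time, by log2 ratios of 0.13, 0.08 and 0.52, and it was not called with the block either (edgeR adjusted p = 0.25). Cdc6 lost its call without WT replicate 2 (0.66, edgeR adjusted p = 0.11), WT replicate 3 (0.62, 0.077), KD replicate 1 (0.58, 0.091) or KD replicate 2 (0.77, 0.075). Cdt1 kept its call only without KD replicate 3 among the 6 single libraries, with adjusted p up to 0.12.

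The MCM2-7 ring is the motor of the replicative helicase and is built from 1 copy of each of 6 related subunits. All 6 genes were called higher, and for each of them every KD library was above every WT library. Mcm6 was at 33.3, 28.4 and 30.2 TPM in WT and at 59.9, 44.0 and 45.8 TPM in KD, a change of 0.64 (SE 0.11, edgeR adjusted p = 0.0052). Mcm7 was at 50.6, 48.9 and 56.4 TPM in WT and at 93.4, 79.2 and 77.4 TPM in KD, a change of 0.62 (SE 0.08, edgeR adjusted p = 0.0013). Mcm7 was the most abundant subunit in both groups, and its call held under all 19 alternatives that gave it a test. Exons of Mcm7 overlap exons of Ap4m1 by up to 247 bases and of Cops6 by 64 bases, both on the opposite strand.

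Mcm3 was at 19.5, 17.7 and 16.2 TPM in WT and at 32.3, 22.6 and 22.8 TPM in KD, a change of 0.49 (SE 0.14, edgeR adjusted p = 0.034). Mcm2 was at 22.0, 20.3 and 20.3 TPM in WT and at 34.8, 27.2 and 27.2 TPM in KD, a change of 0.46 (SE 0.10, edgeR adjusted p = 0.011). In both genes KD replicate 1 stood above the other KD libraries. Mcm5 was at 15.9, 13.8 and 14.6 TPM in WT and at 25.6, 18.6 and 18.3 TPM in KD, a change of 0.44 (SE 0.13, edgeR adjusted p = 0.033). Mcm4 was at 18.8, 18.1 and 17.6 TPM in WT and at 27.2, 23.7 and 21.8 TPM in KD, a change of 0.36 (SE 0.08, edgeR adjusted p = 0.015). KD replicate 1 was again the highest library, and the remaining KD libraries still lay above all of WT. Differences between subunits in the size of the change were not tested.

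Leaving out KD replicate 1 lowered all 6 fold changes, to between 0.28 and 0.54. Without it Mcm3 was at 0.30 (edgeR adjusted p = 0.061) and Mcm5 at 0.28 (edgeR adjusted p = 0.057), so neither was called, and Mcm2 (0.34), Mcm4 (0.28), Mcm6 (0.50) and Mcm7 (0.54) were still called. Mcm3 and Mcm5 were also lost without WT replicate 2 (edgeR adjusted p = 0.099 and 0.115) or WT replicate 3 (0.088 and 0.072), and Mcm4 without WT replicate 2 (0.053). Mcm2, Mcm6 and Mcm7 were called whichever library was left out.

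Loader and load were also set side by side within each library. The summed level of the 6 MCM2-7 genes was 160.0, 147.2 and 155.3 TPM in WT and 273.2, 215.3 and 213.3 TPM in KD. The sum of the 6 ORC genes was 162.4, 165.1 and 152.1 TPM in WT and 177.3, 180.4 and 173.3 TPM in KD. As a ratio of MCM2-7 to ORC within a library, this was 0.985, 0.892 and 1.02 in WT and 1.54, 1.19 and 1.23 in KD, so all 3 KD libraries lay above all 3 WT libraries. The median log2 ratio of the MCM2-7 genes was 0.63, 0.33 and 0.42 in pairs 1, 2 and 3, and that of the ORC genes 0.01, -0.02 and 0.19. The MCM2-7 median was the higher of the pair each time. These are descriptions of gene sets whose members were chosen with the results known, and the difference was not tested.

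**Figure D2:**
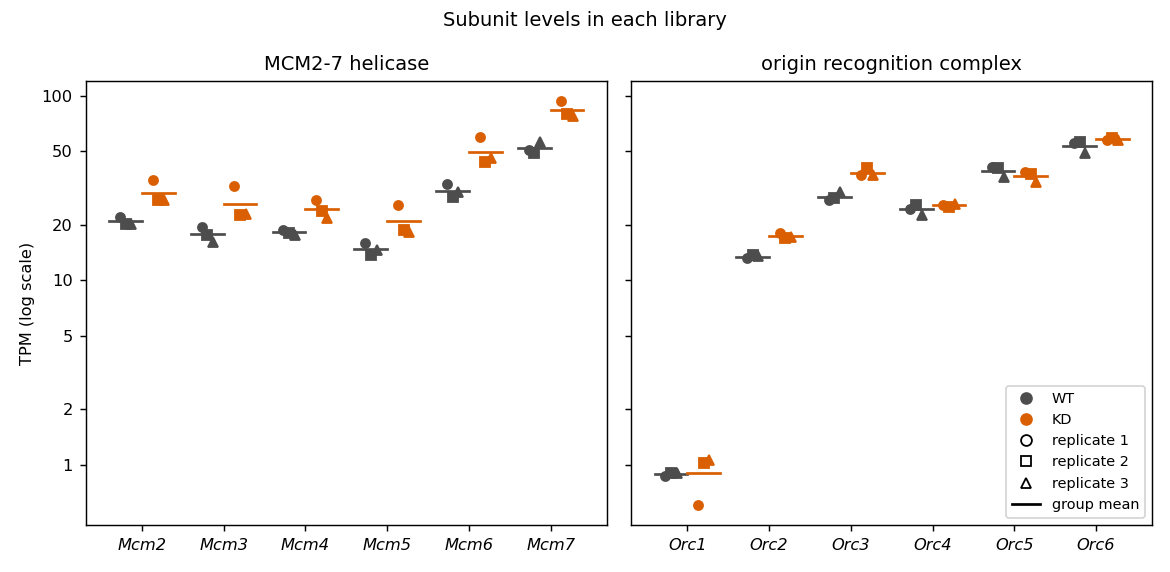
TPM on a log scale (y axis) of each MCM2-7 gene (left) and each ORC gene (right) in every library, WT in grey and KD in orange, with the replicate number by symbol and the mean of 3 libraries as a line. The KD points of all 6 MCM2-7 genes lie above the WT points. In ORC this is so for Orc2, Orc3 and Orc6, though Orc6 overlapped between groups in CPM. Orc1 sits near 1 TPM.

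The stretch just before the start of transcription is shown for 5 of the 7 Mcm genes, Mcm10 included. Those are the genes for which a promoter sequence was given and the stretch lies outside the RefSeq gene and all GENCODE exons. Each is read 5′ to 3′ along the gene's strand, over up to 180 bases, from RefSeq on GRCm38.p6. Mcm2, Mcm3, Mcm5 and Mcm6 were called higher and Mcm10 was not. For Mcm4 no promoter sequence was given. Capitals mark the letters of an E2F motif, searched as TTTCCCGC, TTTGGCGC, TTTCGCGC and TTTGCCGC, or of CCAAT, the box bound by NF-Y. Both strands were searched, so that GCGCCAAA, GCGCGAAA and ATTGG are the same letters read from the other strand.
Mcm2 (chr6:88898781-88898960, minus strand): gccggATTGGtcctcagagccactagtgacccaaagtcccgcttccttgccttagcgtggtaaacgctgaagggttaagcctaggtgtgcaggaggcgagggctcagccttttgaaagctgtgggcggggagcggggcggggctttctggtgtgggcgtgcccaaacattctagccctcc
Mcm3 (chr1:20820313-20820492, minus strand): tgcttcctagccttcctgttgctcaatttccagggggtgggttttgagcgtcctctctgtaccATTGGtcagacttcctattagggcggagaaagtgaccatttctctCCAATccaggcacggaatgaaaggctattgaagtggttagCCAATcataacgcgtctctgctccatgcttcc
Mcm5 (chr8:75109329-75109467, plus strand): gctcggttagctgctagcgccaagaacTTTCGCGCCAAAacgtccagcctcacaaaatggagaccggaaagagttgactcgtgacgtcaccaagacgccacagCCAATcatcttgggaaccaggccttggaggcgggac
Mcm6 (chr1:128359706-128359885, minus strand): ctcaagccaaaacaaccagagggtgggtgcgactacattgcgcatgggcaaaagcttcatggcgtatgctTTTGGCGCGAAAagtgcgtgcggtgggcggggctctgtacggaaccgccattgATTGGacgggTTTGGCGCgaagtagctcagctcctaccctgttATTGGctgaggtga
Mcm10 (chr2:5012792-5012971, minus strand): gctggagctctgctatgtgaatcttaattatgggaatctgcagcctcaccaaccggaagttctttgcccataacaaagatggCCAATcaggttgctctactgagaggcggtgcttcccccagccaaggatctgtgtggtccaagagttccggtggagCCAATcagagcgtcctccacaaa

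In the first capitals of Mcm5, TTTCGCGC runs into TTTGGCGC of the other strand with 4 bases shared, and the first capitals of Mcm6 hold the same motifs in the other order. Mcm6 has another TTTGGCGC further down, for 3 E2F motifs in all. The stretches of Mcm2, Mcm3 and Mcm10 hold none of the E2F letters, while each of the 5 stretches holds CCAAT on either strand, from 1 time in Mcm2 and Mcm5 to 3 times in Mcm3. The E2F letters of Mcm3 lie outside its stretch, 19 and 38 bases after the start. Promoter windows from 250 bases before to 50 after the start were given for 40 of the 48 genes, 49 windows in all. Any of the 4 E2F motifs stood in 16 of the 49 windows (32.7%), against 2.27% of all 32851 windows and 3.87% of the 14017 windows of genes tested. The 16 windows belonged to 16 genes, of which 8 were among the 17 called genes with a window and 8 among the 23 that were not called. By motif, TTTCCCGC was in 8 windows (16.3%, against 1.88% of the windows of genes tested and 1.07% of all windows), TTTCGCGC in 7 (14.3%, against 0.592% and 0.323%), TTTGGCGC in 6 (12.2%, against 0.913% and 0.514%) and TTTGCCGC in 0 (against 0.635% and 0.441%). Of the 6 windows with TTTGGCGC, 5 belonged to called genes (Cdt1, Mcm3, Mcm5, Mcm6 and Pole2) and 1 to Pola1. The other motifs were not split this way: TTTCCCGC was in 4 of the 17 called and 4 of the 23 not called genes. TTTCGCGC was in 3 of the 17 and 4 of the 23.

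CCAAT was in 26 of the 49 windows (53.1%, against 37.8% of the windows of genes tested and 37.4% of all windows). Those windows belonged to 12 of the 17 called genes with a window and to 12 of the 23 that were not called. TTTGAA and TTCGAA, letters of the cell cycle homology region found at many mitotic genes, were in 8 windows (16.3%, against 11.8% of the windows of genes tested and 17.9% of all windows) and 2 windows (4.08%, against 2.01% and 1.56%). TATAAA was in 3 windows (6.12%, against 7.01% and 13.6%). A match is a stretch of letters and not a measured binding site.

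Loaded rings are started by Cdc45, the 4 GINS subunits, Mcm10 and the kinase Cdc7 with its activator Dbf4. The median log2 fold change of these 8 genes was 0.37, all 8 were above 0 in every pair, and 2 were called higher. Cdc45, which joins the ring to form the active helicase, was at 6.68, 4.92 and 5.92 TPM in WT and at 10.2, 8.98 and 8.35 TPM in KD. The groups did not overlap, and the change was 0.60 (SE 0.14, edgeR adjusted p = 0.019). An exon of it shares 52 bases with Ufd1 on the opposite strand. Gins4 was at 36.2, 39.2 and 35.0 TPM in WT and at 53.6, 51.2 and 44.0 TPM in KD, a change of 0.37 (SE 0.09, edgeR adjusted p = 0.019). The lowest fold change among the 8 genes was that of Cdc7, at 19.8, 18.8 and 19.8 TPM in WT and 24.5, 22.1 and 21.0 TPM in KD. Its groups did not overlap, but the difference of 0.16 (SE 0.07, edgeR adjusted p = 0.15) was not called.

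The other 5 genes of helicase activation were Gins3 at 0.53, Gins1 at 0.41, Dbf4 at 0.36, Gins2 at 0.32 and Mcm10, a factor needed for the ring to open into working helicases, at 0.17. With the replicate block Gins1, Gins3 and Dbf4 were called as well (edgeR adjusted p = 0.036, 0.026 and 0.014), whereas Gins2 (0.11) and Mcm10 (0.32) were not. An exon of Gins2 shares 2758 bases with an exon of Gse1 on the opposite strand. The GINS subunits form a complex of equal parts, yet in WT their mRNA ranged from 2.63 TPM for Gins3 to 36.8 TPM for Gins4. Cdc45 lost its call without WT replicate 2 (0.50, edgeR adjusted p = 0.071), KD replicate 1 (0.52, 0.0595) or KD replicate 2 (0.62, 0.058). Gins4 lost it without KD replicate 1 (0.32, 0.060) or KD replicate 2 (0.36, 0.069).

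Pcna is the ring that tethers polymerases to DNA, and the 5 RFC proteins load it. Pcna was the most abundant transcript of the 48, at 183.0, 175.9 and 169.7 TPM in WT and at 267.0, 234.7 and 237.7 TPM in KD. The groups were far apart relative to their spread, and the change was 0.43 (SE 0.06, edgeR adjusted p = 0.0026), called whichever single library was left out. Of the loader genes, Rfc5 (0.30, edgeR adjusted p = 0.043) and Rfc1 (0.21, edgeR adjusted p = 0.0498) were called narrowly. Leaving out any 1 of the 6 libraries ended the call of Rfc5 (edgeR adjusted p between 0.052 and 0.13), and leaving out any but KD replicate 3 ended that of Rfc1 (up to 0.16). Rfc4 and Rfc3 differed by 0.23 (SE 0.14) and 0.12 (SE 0.08) and were not called. Rfc2 was at 66.2, 69.4 and 61.7 TPM in WT and at 69.3, 69.6 and 69.4 TPM in KD. These ranges overlapped, with a difference of 0.02 (SE 0.06, edgeR adjusted p = 0.83). Exons of Rfc2 overlap those of Lat2 by up to 952 bases and exons of Rfc5 those of Wsb2 by up to 499 bases, on the opposite strand. The ratio of Pcna to the summed RFC genes was 1.11, 1.09 and 1.08 in WT and 1.40, 1.29 and 1.35 in KD, without overlap.

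The polymerases were the largest role, with 9 genes, of which 7 were not called. DNA polymerase alpha with primase (Pola1, Pola2, Prim1, Prim2) lays down primers, polymerase delta (Pold1, Pold2, Pold3) extends the lagging strand and polymerase epsilon (Pole, Pole2) the leading strand. Of these 9 genes 2 were called higher, and the median was 0.15. Prim1, the catalytic primase subunit, was at 27.5, 23.3 and 24.3 TPM in WT and at 40.9, 30.5 and 37.1 TPM in KD. The groups did not overlap, and the change was 0.48 (SE 0.12, edgeR adjusted p = 0.023). Pole2 was at 4.01, 4.25 and 3.64 TPM in WT and at 5.54, 5.27 and 6.89 TPM in KD, a change of 0.53 (SE 0.17, edgeR adjusted p = 0.047). It rested on 41 to 76 counts per library and overlaps exons of Gm49384 by up to 177 bases on the same strand. Any left-out library ended the call of Pole2 (edgeR adjusted p between 0.073 and 0.14), and leaving out WT replicate 2 (0.088), WT replicate 3 (0.056), KD replicate 1 (0.072) or KD replicate 3 (0.065) ended that of Prim1.

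The catalytic subunits of the 3 polymerases were not called without the block. Pola1 differed by 0.29 (SE 0.15), Pold1 by 0.27 (SE 0.12) and Pole by 0.08 (SE 0.09). With the block Pola1 and Pold1 were called (edgeR adjusted p = 0.022 and 0.012) and Pole was not (0.44). Prim2, Pold2 and Pola2 differed by 0.15, 0.08 and 0.06. Pold3, an accessory subunit of polymerase delta, was at 39.2, 35.7 and 37.4 TPM in WT and at 36.6, 34.8 and 32.3 TPM in KD. In CPM it was the only one of the 48 genes with every KD library below every WT library, with a difference of -0.15 (SE 0.06, edgeR adjusted p = 0.096) that was not called. With the block its adjusted p was 0.051. In TPM, as printed, the groups overlapped.

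RPA coats the single strands that the helicase exposes. Rpa1, its largest subunit, was at 35.1, 32.9 and 34.6 TPM in WT and at 43.1, 41.7 and 37.7 TPM in KD, without overlap, a change of 0.20 (SE 0.06, edgeR adjusted p = 0.039). Among single libraries left out, its call held only without KD replicate 3, with adjusted p up to 0.13. Rpa3, the smallest subunit, had the larger fold change, at 26.2, 20.1 and 20.1 TPM in WT and 34.8, 30.6 and 32.6 TPM in KD. The groups did not overlap, but with 55 to 96 counts per library the difference of 0.50 (SE 0.16, edgeR adjusted p = 0.051) was just outside the threshold. Rpa2 differed by 0.25 (SE 0.13), and all 3 RPA genes were called with the block.

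Fen1 and Lig1 finish Okazaki fragments, the short pieces of the lagging strand, by trimming and joining them. Lig1 was at 25.7, 22.8 and 25.3 TPM in WT and at 33.8, 28.2 and 27.9 TPM in KD. The groups did not overlap, with a difference of 0.23 (SE 0.08, edgeR adjusted p = 0.073) that was called with the block (0.012). Fen1 was at 15.4, 14.8 and 15.1 TPM in WT and at 17.9, 19.2 and 15.7 TPM in KD. Its difference of 0.17 (SE 0.10, edgeR adjusted p = 0.23) was called by neither fit. Exons of Fen1 overlap by up to 1908 bases with the antisense gene Gm10143.

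The 4 genes of nucleotide supply had a median of 0.41. Ribonucleotide reductase, made of Rrm1 and Rrm2, produces deoxynucleotides, and Rrm2 is the subunit whose amount follows S phase. Rrm2 was at 43.4, 40.0 and 41.1 TPM in WT and at 68.3, 52.1 and 51.1 TPM in KD, without overlap, a change of 0.41 (SE 0.10, edgeR adjusted p = 0.023). It lost its call without WT replicate 2 (0.39, edgeR adjusted p = 0.084) or WT replicate 3 (0.39, 0.054), and without KD replicate 1 the change was 0.27. Rrm1, whose protein is more constant through the cycle, was at 41.2, 37.2 and 37.2 TPM in WT and at 52.3, 45.5 and 43.0 TPM in KD. All KD libraries were above WT, with a difference of 0.23 (SE 0.08, edgeR adjusted p = 0.056) just outside the threshold.

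Thymidylate synthase (Tyms) and thymidine kinase (Tk1) make thymidine nucleotides by synthesis and by salvage. Tk1 was at 13.2, 9.24 and 9.63 TPM in WT and at 15.6, 16.9 and 13.0 TPM in KD. Its highest WT library lay just above its lowest KD library, and the difference of 0.48 (SE 0.18, edgeR adjusted p = 0.085) was not called. Tyms differed by 0.40 (SE 0.15, edgeR adjusted p = 0.087), with log2 ratios of 0.50, 0.59 and 0.01 in pairs 1, 2 and 3. With the block Rrm1, Tyms and Tk1 were called, so all 4 genes were. Estimated counts of Tyms were fractional in 6 libraries and those of Tk1 in 2, as were those of Orc4 in 6, so reads of these genes may have been divided with other sequences.

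Claspin (Clspn), which passes the checkpoint signal at a stalled fork, was at 5.39, 4.36 and 4.13 TPM in WT and at 7.03, 5.37 and 5.29 TPM in KD. The highest WT value was above the 2 lower KD values, and the difference of 0.29 (SE 0.15, edgeR adjusted p = 0.19) was called only with the block (0.030). Each pair was nevertheless higher in KD, by 0.30, 0.19 and 0.32.

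**Figure D3:**
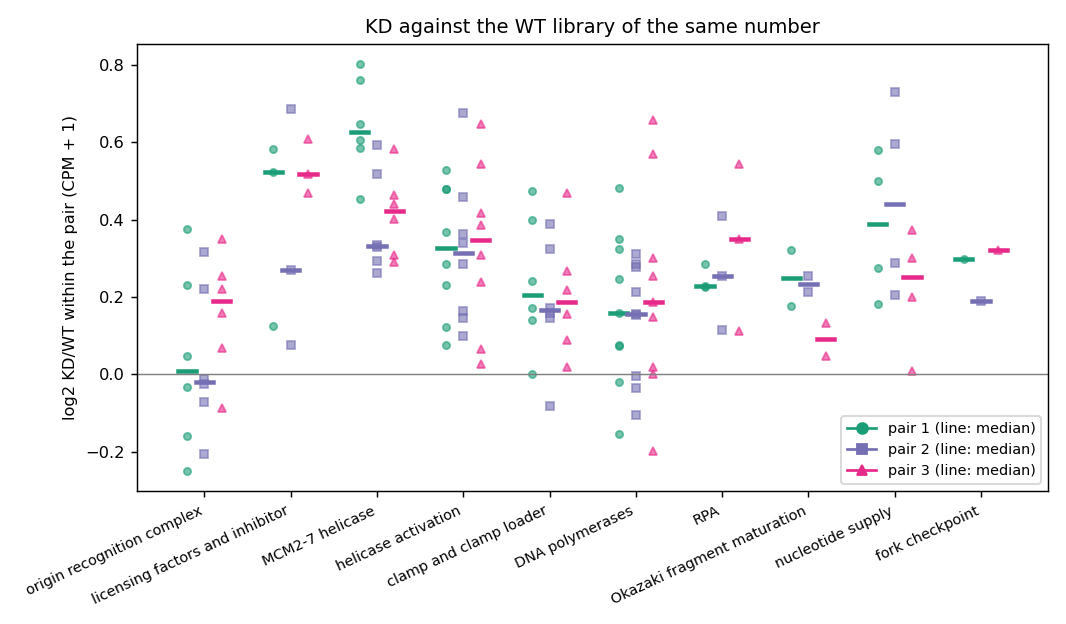
The log2 ratio of each KD library to the WT library of the same number (y axis, from CPM with 1 CPM added), by role on the x axis; points are genes, symbols and colours are pairs 1, 2 and 3, and lines are medians. The MCM2-7 medians are 0.63, 0.33 and 0.42, and the ORC medians 0.01, -0.02 and 0.19.

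Read across roles, the MCM2-7 genes and the licensing group had the highest medians (0.47 each), followed by nucleotide supply (0.41) and helicase activation (0.37). The licensing group holds Cdc6, Cdt1 and the inhibitor Gmnn, and its median was the value of Cdt1. RPA (0.25), the clamp and its loader (0.22) and Okazaki maturation (0.20) lay between these and the polymerases (0.15) and ORC (0.06). This order changed between pairs. In pair 2 the median of nucleotide supply (0.44) was above that of MCM2-7 (0.33). In pair 3 the licensing group (0.52) was above MCM2-7 (0.42), and nucleotide supply (0.25) was below RPA (0.35). Differences between roles were not tested. Depth was uneven among the genes, from 22 counts for Orc1 in a library to 2068 for Pcna. Of the 13 genes with a mean under 10 CPM 4 were called, and of the 24 with a mean of at least 20 CPM 13 were called. The share of all genes called at these depths was not counted. A gene of few counts that was not called, such as Gmnn or Gins2, is less well measured than Rfc2 or Pold3.

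Other genes of replication were examined from a list of 40, all tested, which holds chromatin assembly, fork protection, nucleotide and helicase regulation genes. Of these, 15 were called higher and 1 lower, against 12.0% and 11.9% of all genes tested. The median was 0.27, near that of the 48 genes. Dna2, a nuclease of Okazaki processing, and Timeless, a fork protection factor, each changed by 0.50 (edgeR adjusted p = 0.034 and 0.015). The smallest called rises were those of Chtf8 (0.16), part of an alternative clamp loader, and Dck (0.19), a salvage kinase. The gene called lower was Rrm2b, the ribonucleotide reductase subunit induced by p53, used outside S phase, at 10.4, 9.21 and 9.54 TPM in WT and 8.07, 8.57 and 8.48 TPM in KD. Its change of -0.27 (SE 0.08, edgeR adjusted p = 0.041) ran opposite to that of its S phase counterpart Rrm2. With the block 25 of the 40 were called higher and 1 lower, against 18.6% and 18.1% of all genes.

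Genes of mitosis and proliferation were examined as well. Of 23 genes, all tested, 10 were called higher and 0 lower, against 12.0% and 11.9% of all genes tested, and the median was 0.45. With the block 20 were called higher, against 18.6% of all genes. The 3 largest called changes were those of Hmmr (0.73), a spindle protein, Mki67 (0.65), the proliferation marker Ki-67, and Top2a (0.62), which untangles chromosomes (edgeR adjusted p = 0.035, 0.0088 and 0.016). The 3 smallest were those of Bub1 (0.49), Birc5 (0.49) and Kif11 (0.51). The summed level of the 23 genes was 481.0, 421.3 and 371.0 TPM in WT and 736.4, 537.1 and 501.0 TPM in KD. Divided by that sum, the summed level of the 48 replication genes was 2.52, 2.71 and 3.03 in WT and 2.17, 2.65 and 2.78 in KD, ranges that overlapped. Within pairs this ratio was lower in KD each time, and the difference was not tested.

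Marker genes of the cell types in the culture were read against the same 12.0% of genes called higher and 11.9% lower, or 18.6% higher and 18.1% lower with the block. Of 8 intermediate progenitor markers 7 were called higher (8 with the block), among them Eomes and Neurog2 at 1.57 and 1.58, and their summed level was 88.6 to 120.2 TPM in WT and 192.4 to 222.1 TPM in KD. The ratio within pairs was 2.51, 1.96 and 1.60, and for the 48 replication genes it was 1.32, 1.25 and 1.24. Of 10 radial glia markers, 2 were called higher, Pax6 and Hes1, and 6 with the block, which added Sox2, Vim, Prom1 and Hopx, with a summed level of 3085 to 3467 TPM in WT and 3524 to 3802 TPM in KD. Most of that sum was Fabp7, at 2582 ± 186 TPM in WT and 2777 ± 58.9 TPM in KD, which was not called. Of 12 neuron markers, Dcx was called higher and Stmn2, Gap43 and Mapt lower, with sums of 7034 to 7848 and 6554 to 7604 TPM. With the block 4 were called higher and 3 lower, the additions being Neurod6, Bcl11b and Tbr1. Neurod6 had the largest difference of the neuron list, 0.65 (edgeR adjusted p = 0.058, and 3.2e-07 with the block). None of the markers in these 3 lists was under 1 TPM in every library. The part of these marker differences in the replication result was not tested.

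Markers of other cells that the culture could hold were examined too. Of 6 GABAergic neuron markers 1, Dlx2, was called higher, with sums of 457.9 to 676.5 TPM in WT and 492.9 to 758.4 TPM in KD, and with the block Dlx1 was added and Gad1 was called lower. Of 5 oligodendrocyte lineage markers 2, Olig1 and Cspg4, were called lower, and 4 with the block (Olig2 and Sox10 added), with sums of 306.3 to 412.6 and 262.7 to 331.1 TPM. Of the 3 astrocyte markers tested 0 were called, with sums of 51.6 to 59.6 and 50.2 to 61.2 TPM. Microglia markers summed to 4.01 to 7.96 TPM in WT and 3.31 to 6.06 TPM in KD, and fibroblast and meningeal markers to 2.77 to 5.76 and 2.22 to 5.10 TPM. All 4 endothelial and all 3 listed erythroid markers stayed under 1 TPM in every library, although no marker was at 0 in all of them.

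**Figure D4:**
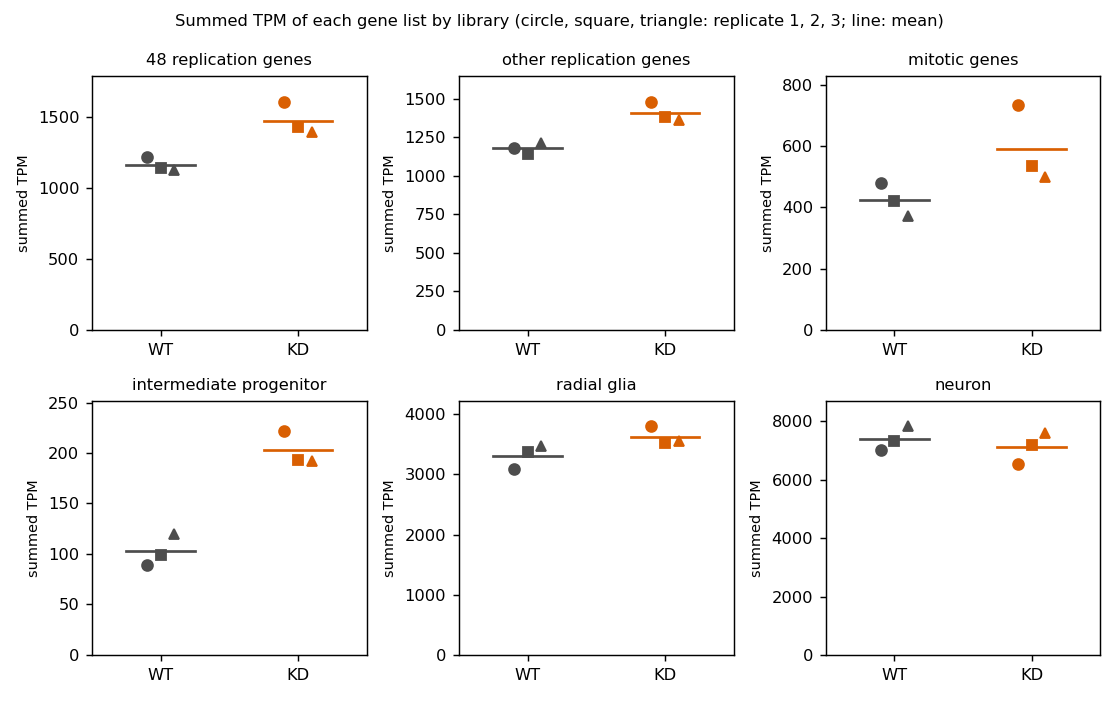
Summed TPM (y axis, from 0) of 6 gene lists in each library, WT in grey and KD in orange, symbols for replicates 1, 2 and 3 and a line for the group mean. KD lies above WT without overlap for the 48 replication genes, the other replication genes, the mitotic genes, the intermediate progenitor markers and the radial glia markers. It overlaps WT for neuron markers. The radial glia sum is mostly Fabp7. Of the 10 radial glia markers, Pax6, Hes1 and Fabp7 separate singly in TPM, whereas in CPM only Pax6 and Hes1 do.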

How the data were processed

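RNA of 3 WT and 3 KD samples was sequenced by the authors on the DNBSEQ platform. The submitters' processing notes name HISAT2 2.2.1, Bowtie2 2.4.5 and RSEM 1.3.1, with GRCm38 (mm10). The deposited table gives the authors' estimated count of each gene, which need not be whole (89.3% to 89.9% of values per library were), and the authors' TPM value. Reads shared by similar sequences can be divided between genes, and whether strand was used is not given in the sources used here. The table calls the controls Ctrl, and each was matched to the WT title of the same number. The 12 columns of FPKM values and group averages were not used here.

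For testing, the estimated counts were rounded to integers, although integer counts had been foreseen. KD was compared with WT in edgeR 4.0.16 (R 4.3.3) by the two-sided quasi-likelihood test, after TMM scaling and filterByExpr (minimum count 10), over 13669 genes. The p-values were adjusted by Benjamini-Hochberg and called under 0.05. SE was taken as the size of the log2 fold change over the square root of the F statistic. CPM uses TMM-scaled totals, and pair ratios use CPM with 1 added. The between-library coefficient of variation was 7.69%, and 4.71% with the replicate block. Library totals were nearly equal, so precision differed mainly with each gene's own counts. Replicates differed by a chi-square statistic of 4.43 to 8.66 per degree of freedom, so none was counted as a repeat of another. The methods speak of independent replicate experiments, without saying which cultures or animals each library came from.

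Deviations of log2 CPM from the group means correlated over genes at 0.45, 0.38 and 0.25 between libraries of the same number, and at -0.31 to -0.02 between libraries of different numbers. The numbers were therefore taken to pair the libraries. The fit without the block remained the principal one because the study's methods name no block.

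The 48 genes, their roles, the further gene lists and the tests were chosen with earlier results of these data known. All 48 genes are named. Values per library are given for the MCM2-7 genes, Pcna, Cdc6, Cdt1, Gmnn, Cdc45, Rrm2 and the highest and lowest fold change of each role, and Orc1, Orc3, Gins4, Prim1, Rpa1 and Rrm1 were added after their values were seen. Of the other replication and the mitotic genes, the 3 highest and the 3 lowest called fold changes were named. A further gene that this rule selects is not reported here. Promoter windows and gene positions are from RefSeq on GRCm38.p6, exon overlaps from GENCODE M21. The scripts were tested on simulated data. Alternatives were other scalings, filters, thresholds and tests (DESeq2 1.42.0, limma 3.58.1, the edgeR exact test, limma on log2(TPM + 1)), the replicate block and leaving out libraries.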

Additional observations from a re-analysis of the deposited data

How the results depend on the processing

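Over 19 alternatives and 2 stricter thresholds, 0 replication genes were called lower except without WT replicate 3, where 1, Orc5, was. The count called higher, 19 as reported, was between 15 and 24 with RLE, upper quartile or total count scaling, with either other filter, with DESeq2, limma-voom, the edgeR exact test or limma on log2(TPM + 1). It was 5 at an adjusted p under 0.01 and 4 when a change of at least 1.5-fold was required as well, 7 to 18 when a single library was left out, with 0 to 1 lower, and, in fits chosen after seeing the data, 13, 1 and 9 when both libraries of replicate 1, 2 or 3 were left out. Of the 19 genes, 6 were called in each of the 6 fits without a single library: Orc2, Orc3, Mcm2, Mcm6, Mcm7 and Pcna.

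Over all genes, 1646 were called higher and 1631 lower. These became 629 and 634 at an adjusted p under 0.01, 294 and 244 with at least 1.5-fold, 779 to 1612 and 797 to 1583 without a single library, and 1025 and 944, 135 and 93, and 1336 and 1350 without both libraries of replicate 1, 2 or 3. On log2(TPM + 1) the split was 2102 higher and 1051 lower. The median log2 fold change of the replication genes, 0.29 as reported, was 0.27 with upper quartile scaling, 0.31 with total count scaling, 0.35 on log2(TPM + 1) and 0.22 to 0.36 without a single library.

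With the replicate block, 2539 genes were called higher and 2470 lower, and 31 replication genes higher and 0 lower. The block ended none of the 19 calls.

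Signs turned in 4 genes that were not called, and in the ORC median. With a single library or both libraries of a number left out, Orc1 ranged from -0.2395 (without both of replicate 3) to 0.037 (without KD replicate 1), Orc6 from -0.0291 to 0.0965, Gmnn from -0.036 (without WT replicate 3) to 0.6085 and Rfc2 from -0.0415 to 0.0787. Orc6 and Rfc2 were below 0 without WT replicate 3 and without both libraries of replicate 3. The ORC median, 0.06 as reported, ranged from -0.0052 without both libraries of replicate 3 to 0.0983 without both of replicate 2. The cause was not tested.

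With 3 libraries per group and changes of this size, single libraries decide many of the calls. Genes of few counts are the least precisely measured, with the largest SE for Gmnn (0.34), Orc1 (0.22), Gins3 (0.20) and Cdc6 (0.20). A gene filter on TPM alone was not run, since the table gives counts. Where a single library was left out, the fit used 5 libraries.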
